A study of Bos taurus with 8 samples.

Results

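HBB, HBA and ALAS2 are the genes of beta-globin, of alpha-globin and of the erythroid 5-aminolevulinate synthase. They were followed in granulosa cell RNA of dairy cows, and are 3 of the 15229 gene symbols that the annotation of the array pairs with its probes. Every probe annotated with one of these symbols was taken, which gave 1 probe for each gene (EMBV3_14644 for HBB, EMBV3_17201 for HBA and EMBV3_22265 for ALAS2). The genes had been picked because earlier results of these data were known, among them the ratios of HBB, so their ratios and levels are given as a description and no test is made of them.

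Holstein cows were grouped by blood beta-hydroxybutyrate as BHBH (high, severe negative energy balance) or BHBL (low, mild negative energy balance), and no other allele, agent or treatment separates the groups in the labels. All cows received a single PG injection, and granulosa cells were aspirated from dominant follicles above 9 mm 42 h later, at day 60 postpartum; the age of the cows is not in the labels. Each group comprised 12 cows in 4 pools of 3, so that 1 pool is the smallest unit measured and single cows cannot be seen. RNA was amplified before 825 ng per pool were labelled, and a BHBH pool and a BHBL pool shared each of 8 two-colour arrays, with the dyes exchanged between slide 289 and slide 288. The labels do not number the pools, so arrays with the same area number on both slides were taken as 1 pool pair.

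Haemoglobin is a tetramer of alpha and beta globin chains, each holding a haem group, and it fills the red blood cell. Haem is made in a chain of enzymes that starts in the mitochondrion, and its rate in red cell precursors is set by ALAS2, whereas ALAS1 is the form used by other tissues. Mature red cells of mammals have no nucleus but can keep remnants of globin RNA, and granulosa cells lie behind a basement membrane in a layer of the follicle that blood vessels do not enter.

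HBB differed widely between pools, which is part of why it was chosen. Its probe read a median foreground intensity (arbitrary scanner units, without background correction) of 13174 and 8158 in BHBH pool 1, of 21180 and 12593 in BHBL pool 2, and of 6944 and 4520 in BHBL pool 3, the first value of each pool in Cy3 and the second in Cy5. The other 5 pools read from 340 to 912. The probe was above the negative controls (their mean plus 2 SD, after subtraction of local background) in 16 of 16 channels and was saturated in 0. HBB RNA was thus detected in every pool, and 3 of the 8 stood far above the rest, 1 of them from BHBH and 2 from BHBL.

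After normalisation the log2 intensity of HBB was 13.48, 8.87, 8.52 and 9.59 in BHBH pools 1 to 4. It was 9.39, 13.85, 12.41 and 9.16 in BHBL pools 1 to 4. The order from high to low was BHBL pool 2, BHBH pool 1, BHBL pool 3, BHBH pool 4, BHBL pool 1, BHBL pool 4, BHBH pool 2 and BHBH pool 3. Between BHBL pool 3 and BHBH pool 4 lay a gap of 2.82 log2 units, and the Cy5 and Cy3 measurements of a pool differed by at most 0.55. Neighbours among the lower 5 pools were 0.20 to 0.35 apart, which is within that dye difference, as was the step of 0.37 between the upper 2. From lowest to highest the pools spanned 40.3-fold. The groups overlapped, with 10.12 ± 2.29 (SD, n = 4 pools) in BHBH and 11.20 ± 2.31 (SD, n = 4) in BHBL.

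**Figure D1:**
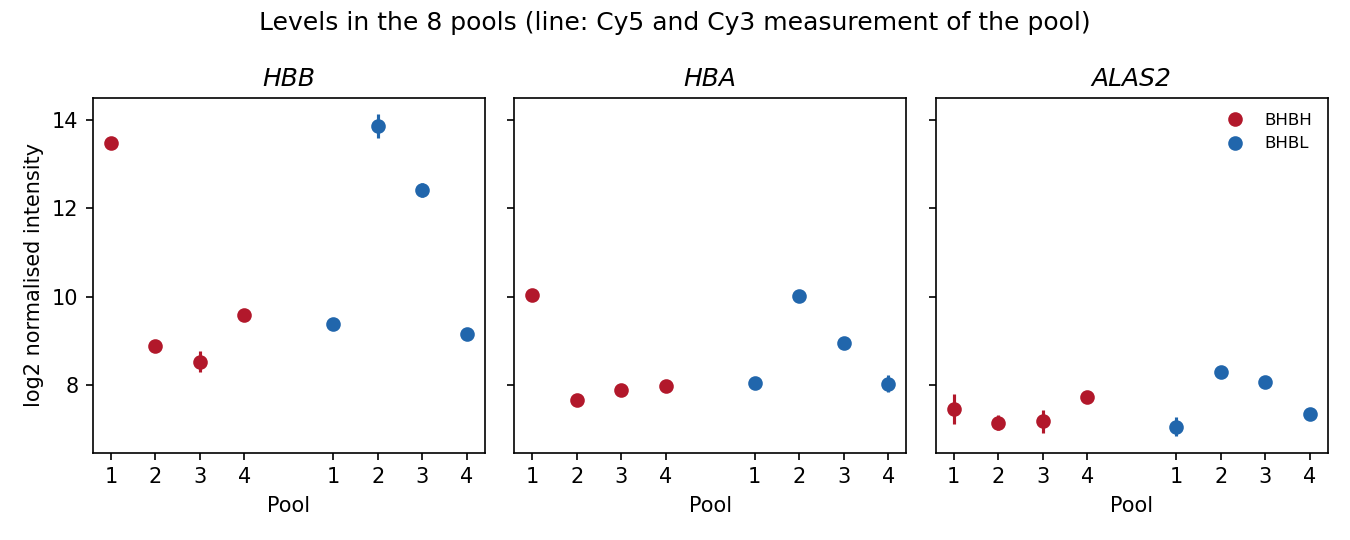
Log2 normalised intensity of HBB, HBA and ALAS2 in the 4 BHBH pools (red) and the 4 BHBL pools (blue). Points are pool means, and lines join the Cy5 and the Cy3 measurement of a pool. HBB is above 12 in BHBH pool 1 and BHBL pools 2 and 3 and below 10 in the other 5 pools.

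HBA repeated the pattern of HBB over a narrower span. Its foreground intensity was 1323 and 987 in BHBH pool 1, 1209 and 1163 in BHBL pool 2, and 629 and 431 in BHBL pool 3 (Cy3 first), against 208 to 328 in the other 5 pools. Normalised log2 intensities were 10.03, 7.66, 7.88 and 7.98 in BHBH pools 1 to 4, and 8.05, 10.01, 8.96 and 8.03 in BHBL pools 1 to 4. The same 3 pools led, BHBL pool 3 followed the upper 2 by 1.05, and the next step down was 0.91. The remaining 5 pools were 0.02 to 0.21 apart, below the largest difference of 0.38 between dyes. Cy5 read higher than Cy3 in every pool but BHBL pool 3, so that difference is in part a shared offset, not the error of a pool mean. The group means were 8.39 ± 1.11 (SD, n = 4) in BHBH and 8.76 ± 0.94 (SD, n = 4) in BHBL.

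ALAS2 was dim and followed the globins in part. Its foreground intensity ran from 152 to 433, and 14 of 16 channels were above the negative controls, the exceptions being the Cy3 channels of BHBL pool 1 and BHBH pool 3. Normalised log2 intensities were 7.46, 7.14, 7.18 and 7.73 in BHBH pools 1 to 4, and 7.05, 8.29, 8.06 and 7.33 in BHBL pools 1 to 4. BHBL pools 2 and 3 were highest, as for the globins within BHBL, but the third in order was BHBH pool 4, and BHBH pool 1 was the fourth. Every step between neighbours (0.04 to 0.33) was smaller than the largest difference of 0.67 between dyes. Cy5 read higher than Cy3 in every pool, by 0.35 on average, so the dye difference is in part a shared offset. Each pool mean holds 1 value of either dye, so this offset does not alter the order. The dye difference is thus not the error of a pool mean, and how firm the order is was not tested. The group means were 7.38 ± 0.27 (SD, n = 4) and 7.68 ± 0.59 (SD, n = 4).

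The ratios within arrays gave the same picture for each pool pair. In what follows a ratio is the log2 of BHBH over BHBL after background correction and loess, averaged over both arrays of a pair. HBB was at 4.10, -4.98, -3.89 and 0.43 in pairs 1 to 4, which is 17.1-fold higher in BHBH in pair 1, and 31.6-fold and 14.8-fold lower in pairs 2 and 3. On single arrays, with slide 289 before slide 288, pair 1 read 3.99 and 4.21, pair 2 read -5.12 and -4.84, pair 3 read -3.81 and -3.97, and pair 4 read 0.38 and 0.48. The sign was thus the same on both slides in each pair, and opposite between pairs.

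HBA was at 1.99, -2.35, -1.08 and -0.05, or 3.97-fold higher in pair 1 and 5.10-fold and 2.12-fold lower in pairs 2 and 3. Its arrays read 2.18 and 1.80, -2.09 and -2.61, -0.99 and -1.18, and 0.24 and -0.33. In pair 4 the slides differed in sign. ALAS2 was at 0.41, -1.15, -0.88 and 0.40, with arrays at 0.96 and -0.14, -0.90 and -1.39, -0.54 and -1.21, and 0.65 and 0.14. In pair 1 its sign therefore depended on the array, and in pairs 2 and 3 both arrays were lower in BHBH.

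**Figure D2:**
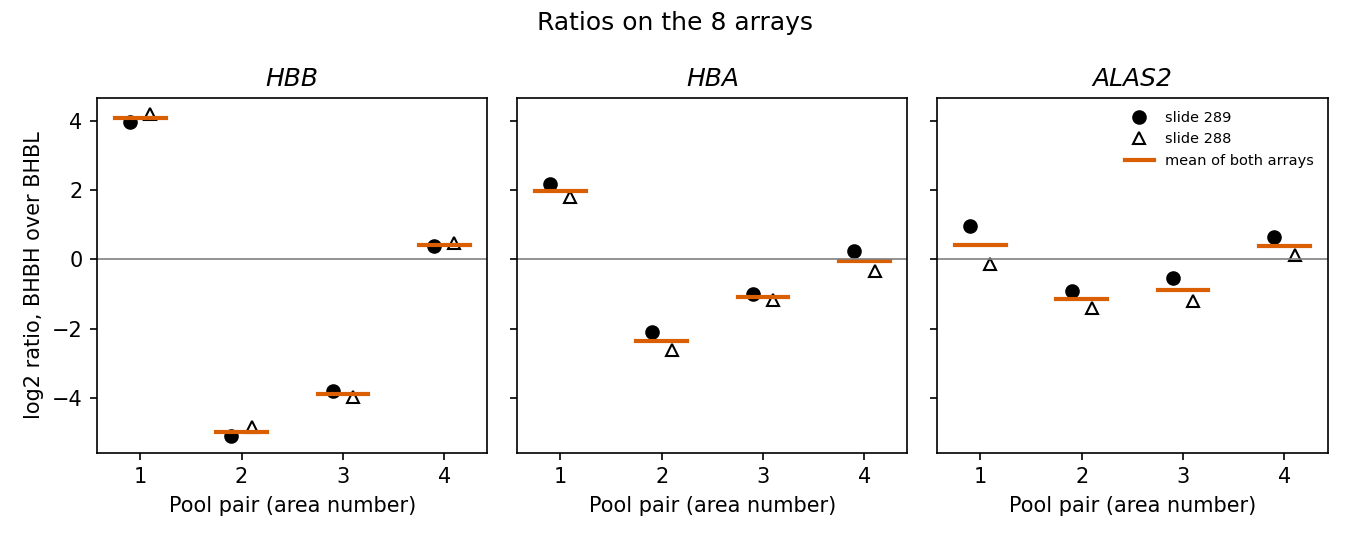
Log2 ratio of BHBH over BHBL for HBB, HBA and ALAS2 on each of the 8 arrays, by pool pair. Filled circles are slide 289, open triangles slide 288, and orange bars the mean of both. HBB runs from 4.10 in pair 1 to -4.98 in pair 2, and its arrays of a pair lie close together.

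At least 2-fold differences were seen for HBB and HBA in pairs 1, 2 and 3, and for ALAS2 in pair 2. A feature is a named gene or an unnamed probe that passed the filter on dim signal. Of all 32285 features, the share at least 2-fold apart was 5.54% for pair 1 (2.94% higher and 2.6% lower in BHBH). It was 4.8% for pair 2 (1.12% higher, 3.69% lower), 4.03% for pair 3 (1.62% higher, 2.41% lower) and 6.31% for pair 4 (1.21% higher, 5.1% lower). At least 2-fold differences in 3 or more pairs, as HBB and HBA had, were seen for 1.99%. These shares stand beside the members without comparison, since the members were chosen on this contrast. Averaged over the pairs, HBB was at -1.09 ± 1.65 (SE from limma, n = 4), HBA at -0.37 ± 0.73 and ALAS2 at -0.30 ± 0.33. Each mean was smaller than the SD between pairs, which was 4.17, 1.83 and 0.82. One pair set the direction of HBB, whose mean was 0.21 when pair 2 was left out. Leaving out pair 1, 3 or 4 gave -2.81, -0.15 and -1.59. HBA likewise turned to 0.29 without pair 2. ALAS2 was at -0.02 without pair 2, and its mean was 0.04 on slide 289 and -0.65 on slide 288.

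The SD between dye-swapped arrays of a pair, which measures labelling and hybridisation but not cows or pools, was 0.14 for HBB, 0.31 for HBA and 0.52 for ALAS2. It stands beside an SD between pairs of 4.17, 1.83 and 0.82. Over all features the median SD was 0.24 between pairs and 0.23 between dye-swapped arrays. The SD between pairs is that of means over 2 arrays. The SD between dye-swapped arrays is that of a single array and holds any shared dye shift. Equal values therefore do not mean that pairs differed no more than labelling and hybridisation alone would give. The SDs of HBB, HBA and ALAS2 describe members that were chosen on the same ratios. Without pair 1 the range of HBB between pairs fell from 9.08 to 5.41 log2 units and that of HBA from 4.34 to 2.31.

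**Figure D3:**
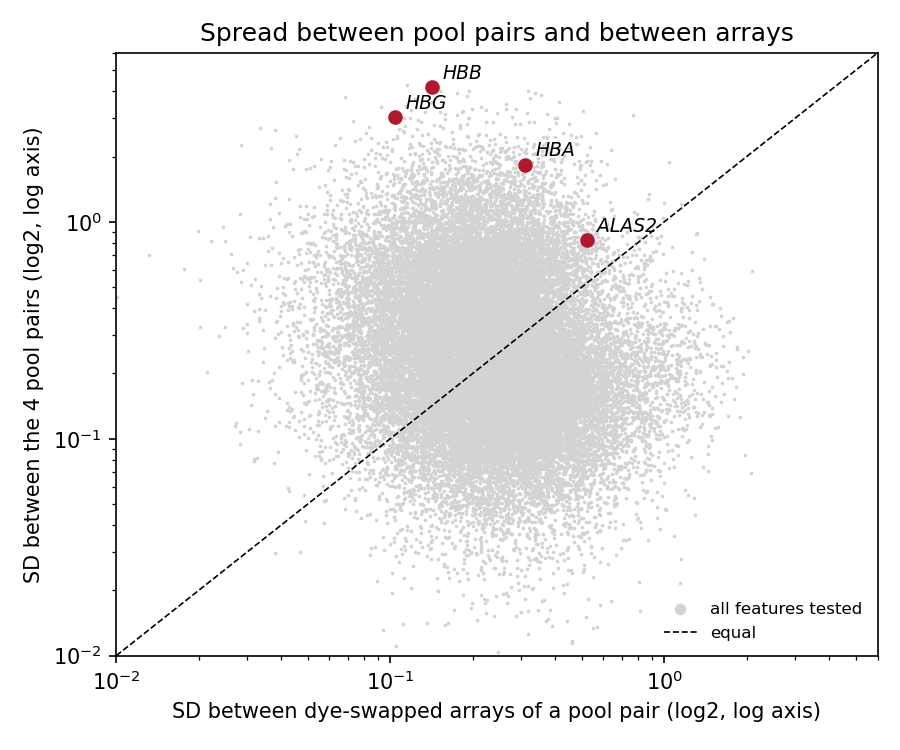
SD between the 4 pool pairs against the SD between dye-swapped arrays of a pair, in log2 units on log axes. Each grey point is 1 of 32285 features and the dashed line marks equal values. HBB, HBG and HBA lie far above the line, and ALAS2 lies just above it at 0.82 against 0.52.

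Of the other globins, HBG moved with HBB. HBG (EMBV3_27161), named for the fetal gamma chain of the beta-globin family, was at 2.98, -3.85, -2.61 and 0.11 in pairs 1 to 4. Its log2 level was 11.08 in BHBH pool 1, 11.55 in BHBL pool 2 and 10.28 in BHBL pool 3, against 7.67 to 8.11 in the other pools, so the 8 pools stood in the same order as for HBB. The globin genes of a family are close in sequence and how far the HBG and HBB probes bind each other's transcripts was not tested. The same holds for HBA, which in RefSeq (assembly ARS-UCD2.0) lies next to a second alpha-globin gene, HBA1. The embryonic beta-type gene HBE4 was at 0.09 ± 0.09 (SE, n = 4 here and for every further ± after a ratio), with pair ratios from -0.06 to 0.26. HBE4 was dim, above background in 8 of 16 channels. HBQ1, the theta gene of the alpha cluster, was at -0.30 ± 0.09, from -0.51 to -0.13 in the pairs, and did not pass (limma, adjusted p = 0.918). Globins of other tissues stayed within narrow limits in these pairs, with MB (myoglobin, of muscle) between -0.23 and 0.30, CYGB (cytoglobin) between -0.13 and 0.07 and NGB (neuroglobin) between -0.09 and 0.07. HBE1 and HBM were below the filter on dim probes.

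With limma on the 4 pool pairs 0 of the 6 measured globins other than HBB and HBA passed at adjusted p under 0.05, and 0% of all features did, with 1652 features (5.12%) at unadjusted p under 0.05. With the area number as a replicate block over 8 arrays 120 features were called, and 215 without the block, and none of the 6 globins was among the first 120. The fit without the block counts both dye-swapped arrays of a pair as replicates. The median ratio of the 6 globins was -0.03, beside -0.01 over all features.

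The remaining enzymes of haem synthesis did not follow the globins. In the order of the pathway, ALAS1, the synthase of most tissues, was at -0.26 ± 0.17 (pairs -0.70, -0.13, 0.24 and -0.45). ALAD, which joins the first intermediates, was at -0.09 ± 0.11, and UROS, which closes the ring, was at -0.12 ± 0.10. UROD was at 0.09 ± 0.17 (pairs -0.28, 0.65, 0.08 and -0.08), CPOX at 0.01 ± 0.13 and PPOX at -0.03 ± 0.16. FECH, which inserts the iron, was at -0.21 ± 0.11. Of these 7 genes 0 passed in either direction (limma, smallest adjusted p = 0.918), 2 were higher and 5 lower on average, and the median was -0.09. In pair 1, where HBB was 17.1-fold higher in BHBH, the 7 had a median of -0.28. In pair 2, where HBB was 31.6-fold lower, it was 0.09. In pairs 3 and 4 the medians were 0.03 and -0.08, and in no pair did a gene of the 7 reach a 2-fold difference. Further probes of UROS averaged -0.33 and those of CPOX -0.15, the latter of opposite sign.

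Haem and iron handling genes varied more, but not in the order of HBB. HMOX1, the inducible enzyme of haem breakdown, was at 0.78, 1.21, -0.77 and -1.997 in pairs 1 to 4. HP, haptoglobin, which binds free haemoglobin in plasma, was at 1.80, -0.75, -0.15 and -1.81. TF, the iron carrier transferrin, was at 1.13, -0.26, -2.27 and -1.70, and SLC40A1, the iron exporter ferroportin, at 0.83, -0.12, 0.26 and -1.70. In pair 4, where HBB differed by 1.35-fold, these 4 genes were all at least 2-fold lower in BHBH. The transferrin receptor gene TFRC was at 0.04 ± 0.16 and SLC25A37, the mitochondrial iron importer gene, at -0.25 ± 0.11 (both named after their values were seen). Of 21 measured genes of this list 9 were higher and 12 lower on average, and 0 passed (limma, smallest adjusted p = 0.918). The list median was -0.07.

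The red cell lists varied unevenly. Of 46 measured genes 16 (34.8%) had a range of at least 2-fold between pairs, against 25.4% of all features. The defining markers SLC4A1 and AHSP were among those that did not. The membrane anion exchanger gene SLC4A1 (band 3) was at 0.08, -0.41, 0.03 and -0.14, and AHSP, the chaperone of free alpha-globin, was at 0.10, -0.08, 0.30 and 0.27. The next 4 genes are named after their values were seen. EPB42 (protein 4.2 of the membrane skeleton) ranged from -0.06 to 0.03 and RHAG, the Rh-associated glycoprotein, from 0.10 to 0.35. The erythroid transcription factor genes GATA1 and KLF1 ranged from -0.05 to 0.17 and from -0.03 to 0.12. GATA1 and KLF1 were each above the negative controls in 7 of 16 channels and RHAG in 9, so their ratios rest largely on dim signal. Over the 8 pools the normalised level of SLC4A1 spanned 2.74-fold, that of AHSP 1.41-fold and that of EPB42 1.21-fold. AHSP ran from 7.23 to 7.72 and EPB42 from 7.15 to 7.43, within the dim levels of ALAS2 (7.05 to 8.29). The spans of AHSP and EPB42 therefore rest on dim signal too. Other genes of the lists spanned about as much as the 40.3-fold of HBB, or more, though not with the same set of high pools. The carbonic anhydrase genes CA1 (154-fold) and CA2 (38.6-fold) were highest in BHBH pool 4, at 11.64 and 12.35, and in BHBL pool 4, at 13.76 and 13.96. In the other 6 pools CA1 ran from 6.50 to 8.25 and CA2 from 8.68 to 9.59. The erythropoietin receptor gene EPOR spanned 37.6-fold, with 11.66, 11.60, 7.29 and 7.25 in BHBH pools 1 to 4 and 11.01, 12.48, 7.40 and 7.47 in BHBL pools 1 to 4. EPOR was thus highest in BHBL pool 2 and BHBH pool 1, as HBB was. Unlike HBB it was also high in BHBH pool 2 and BHBL pool 1, and low in BHBL pool 3. The highest pools of these genes shared arrays with each other, so the ratios within pairs that follow show less of this variation. In bulk RNA, fewer cells of a type and less RNA per cell cannot be told apart.

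Some genes of the red cell lists did vary. STOM, a membrane protein of red and other cells, was at 0.13, 1.15, 1.12 and -1.37, with signs unlike those of HBB in pairs 2 to 4. The integrin-associated protein gene CD47 was at 0.28, -1.57, -0.91 and -1.79, the water channel gene AQP1 at -0.10, -0.37, -1.68 and -0.63, and TMOD1, which caps actin filaments, at 0.80, -0.46, -0.39 and -0.75. Among cytosolic genes SELENBP1 was at 0.27, -2.26, -1.52 and -0.63 (a further probe averaged 0.03), CA1, a carbonic anhydrase abundant in red cells, at -1.14, -1.75, 0.18 and -2.12, CA2 at 0.03, 0.34, -0.56 and -1.61, and GPX1 at -0.83, 0.40, -0.79 and 0.44. CA1 was above background in 9 of 16 channels. None of these 8 genes had the sign of HBB in every pair.

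Of the 13 regulators, 4 had the signs of HBB in all pairs, as 5.1% of all features did. NFE2, a transcription factor of erythroid cells and megakaryocytes, was at 1.12, -0.89, -0.49 and 0.20. GFI1B (0.43, -0.17, -0.12 and 0.55), TAL1 (0.09, -0.06, -0.09 and 0.15) and GATA1 (0.17, -0.05, -0.01 and 0.03), all of them factors of erythroid precursors, did not reach 2-fold in any pair. Every ratio of TAL1 and GATA1 was smaller than the SD between their dye-swapped arrays (0.37 and 0.32), so their signs carry little weight. EPOR was at 0.65, -0.88, -0.12 and -0.22, MYB, a factor of blood progenitors, at 1.39, -0.69, -1.18 and -1.58, and the adaptor gene LDB1 at 0.56, 0.09, 0.89 and -0.49. LMO2, its partner in blood and vessel progenitors (named here after its values were seen), was lower in 4 of 4 pairs, at -0.77, -2.10, -1.40 and -1.68. Its mean of -1.48 ± 0.23 did not pass (limma, adjusted p = 0.866), and it passed with the replicate block (adjusted p = 0.00581). The block fit applies 1 correlation of paired arrays to all features. For LMO2 the SD was 0.56 between pairs and 0.18 between dye-swapped arrays, beside medians of 0.24 and 0.23 over all features. The paired arrays of LMO2 were thus more alike than those of a typical feature, and the block p may be too small.

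The 3 red cell lists held 59 names, of which 46 were measured. Of these 17 were higher and 29 lower on average, 0 passed with limma (smallest adjusted p = 0.866), and the median was -0.11 beside -0.01 over all features. That median was -0.03 without pair 2 and with the authors' deposited ratios. The summed level of the 13 regulators ran from 6249 to 12541 in BHBH and from 13292 to 27306 in BHBL. LMO2 made up 41.3% to 79.7% of these sums, and without LMO2 they ran from 3144 to 7360 and from 2950 to 8664, so the groups overlapped. Of the 13 regulators 7 were higher and 6 lower on average, with a median ratio of 0.02. The 16 membrane genes summed to 10463 to 15821 and 13182 to 22745, and the 17 cytosolic genes to 61161 to 87086 and 77701 to 112507. CD47 made up 34.2% to 74.1% of the membrane sums, and without CD47 they ran from 6360 to 8454 and from 5890 to 9081. BNIP3L (named after its values were seen) made up 41.8% to 63.4% of the cytosolic sums. Without BNIP3L these ran from 30156 to 43123 and from 29992 to 65509. The part of red cell content in the globin differences was not tested. All 4 signs of HBB were shared by 6 of the 46, and by 5.1% of all features. The median range between pairs was 0.69 log2 units for the 46 genes, 0.59 for the 7 haem synthesis genes and 0.54 over all features, against 9.08 for HBB, 4.34 for HBA and 1.56 for ALAS2. None of the 46 was at least 2-fold higher in pair 1 and at least 2-fold lower in pairs 2 and 3, the pattern of HBB, HBA and HBG that 93 features (0.288%) had.

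**Figure D4:**
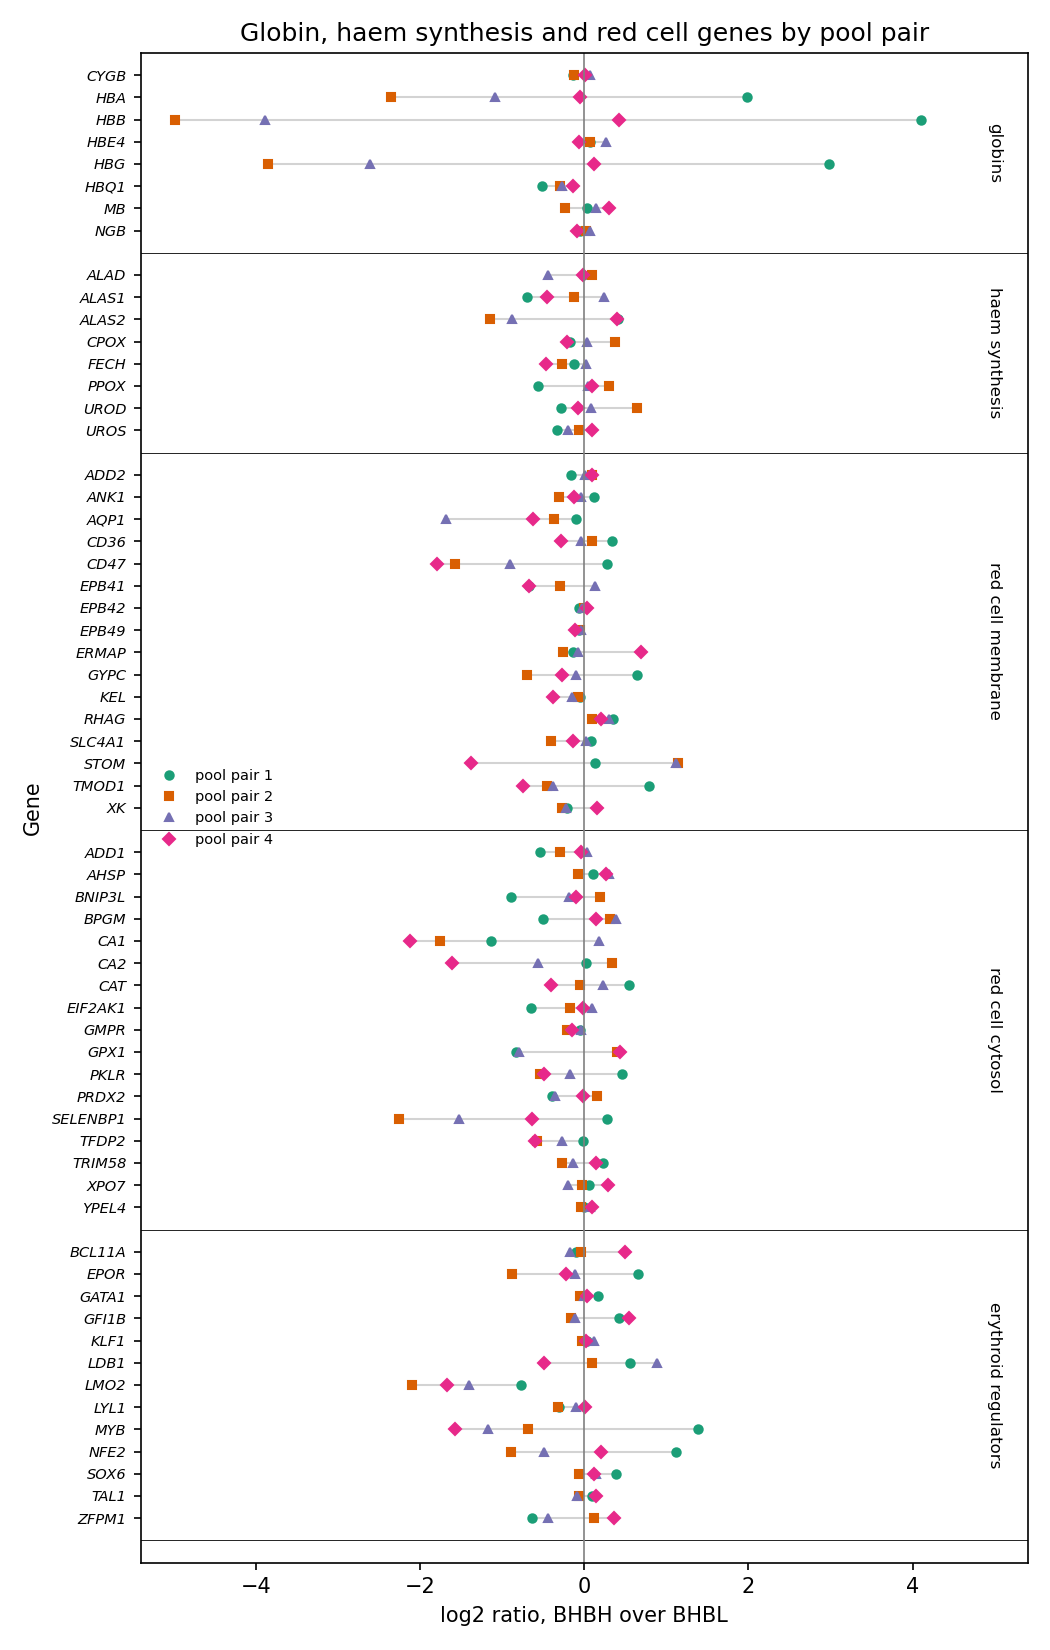
Log2 ratio of BHBH over BHBL in each of the 4 pool pairs for the measured globin, haem synthesis and red cell genes. Symbols mark the pool pairs and grey lines join the lowest and the highest. HBB, HBG and HBA span 9.08, 6.84 and 4.34 log2 units, and the haem synthesis enzymes other than ALAS2 span at most 0.94.

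The labelled cell type was checked against granulosa markers. CYP19A1, aromatase, had log2 levels of 13.83 to 15.64 and INHA, the inhibin alpha subunit, of 15.54 to 15.99 in the 8 pools (INHA was saturated in 12 of 16 channels). FSHR, the follicle stimulating hormone receptor, ran from 8.82 in BHBH pool 1 and 9.18 in BHBL pool 2 to 11.90 in BHBH pool 4, and the granulosa factor FOXL2 from 7.29 to 7.90. All 4 were above background in 16 of 16 channels. The 2 pools highest in HBB thus had the lowest FSHR, whereas BHBL pool 3, the third in HBB, had 10.85, above the remaining pools other than BHBH pool 4. The summed level (linear normalised intensity) of 18 granulosa genes was 193633, 282128, 235401 and 304647 in BHBH pools 1 to 4 and 313835, 217909, 281876 and 162151 in BHBL pools 1 to 4, so BHBL pool 4, which was low in HBB, was lowest here. AMH ran from 8.49 to 10.44, while FST (-1.70, 1.29, 0.57 and 2.13) and INHBB (-1.86, 1.22, 0.96 and 2.001) had ratios opposite in sign to HBB in pairs 1 to 3. The list was mixed in pair 3, where FSHR was at -0.45. Of the 18 genes 1 was at least 2-fold higher in BHBH in that pair and 3 were at least 2-fold lower. The list medians were -0.47, 0.43, -0.0004 and 0.72 in pairs 1 to 4.

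Markers of other cells varied too, and each list had its own order of pools. The 14 platelet genes summed to 29383, 17109, 8464 and 6122 in BHBH pools 1 to 4, and to 16008, 26627, 8836 and 13097 in BHBL pools. BHBH pool 1 and BHBL pool 2 led, as for the globins, but BHBL pool 3 was among the 3 lowest. A single gene, GP1BA of the platelet receptor for von Willebrand factor (named after its values were seen), made up 24.0% to 80.5% of the sums. Without it they were 7825, 5768, 4555 and 3959 in BHBH pools and 3128, 6737, 6719 and 9800 in BHBL pools, with BHBL pool 4 highest and BHBL pools 2 and 3 nearly equal. SELP, P-selectin of platelets and endothelium, was at 2.09, -1.71, -0.94 and -0.07 in pairs 1 to 4. Its levels were highest in the same 3 pools as those of HBB, at 10.04 in BHBH pool 1, 9.53 in BHBL pool 2 and 9.10 in BHBL pool 3, against 7.82 to 8.64 in the others. THBS1, thrombospondin, was at 1.95, -2.52, -0.91 and -2.75, and F13A1 at 2.01, -1.05, -0.75 and -1.79. PF4, a chemokine of platelets, was at 0.54, 1.96, -0.04 and -2.21, and ITGA2B, which defines megakaryocytes and platelets, was above background in 12 of 16 channels with levels from 6.69 to 7.50.

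The 22 leukocyte genes summed to 45686, 54055, 42921 and 12731 in BHBH pools 1 to 4 and to 20566, 52538, 42153 and 70452 in BHBL pools. PTPRC, the common leukocyte antigen, was highest at 12.80 in BHBL pool 2 and 12.20 in BHBH pool 1, and lowest at 9.36 in BHBH pool 4. The 4 genes of widest range parted from HBB, with CD163, the receptor for haemoglobin bound to haptoglobin, at 0.85, 2.31, 1.67 and -4.72, CD14 at 2.95, 1.46, 1.25 and -3.46, LCP1 at 2.24, 1.07, 1.03 and -2.64, and AIF1 at 1.25, 0.15, 0.33 and -3.52. All 4 signs of HBB were shared by 2 of the 22 genes, and by 5.1% of all features. The 2 (named after their values were seen) were MS4A1 (0.63, -3.23, -1.37 and 0.20) and CCR7 (0.51, -0.60, -0.26 and 0.39). CCR7 was above background in 7 of 16 channels.

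The 11 theca and stroma genes summed to 73953, 18773, 15173 and 23101 in BHBH pools 1 to 4, and to 16783, 30371, 32837 and 102944 in BHBL pools. The collagen genes COL1A2 (3.76, -0.65, -2.93 and -5.03) and COL3A1 (3.83, -1.53, -3.52 and -4.84) shared the signs of HBB in pairs 1 to 3 and had the widest ranges of that list, as the matrix and fibroblast genes DCN (2.27, -1.64, -2.89 and -0.89) and PDGFRA (3.31, -2.72, -1.58 and -2.13) did in sign. The PDGFRA probe averaged -0.78 over the pairs, and a further probe of the gene averaged 0.11. In pair 4 the 4 genes were lower in BHBH while HBB was at 0.43. CYP17A1 and INSL3 of theca cells spanned 1.63-fold and 1.56-fold over the pools. The 8 measured endothelial genes summed to between 1250 and 1485, with PECAM1 below the filter, CDH5 between 7.21 and 7.46, and KDR, a receptor of vascular growth factor, at 1.17, -0.89, 0.09 and -0.65. EMCN (-0.18 to 0.31) and CLDN5 (-0.26 to 0.42) had narrower ranges. EMCN was above background in 6 of 16 channels and KDR in 10. The median log2 level of the 8 endothelial genes was 7.26 to 7.41 in the pools, a dim signal that limits these ranges and sums. The part of these cell types in the globin differences was not tested, and 0 genes of the platelet, leukocyte, granulosa, stroma and endothelial lists passed with limma (smallest adjusted p = 0.918).

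**Figure D5:**
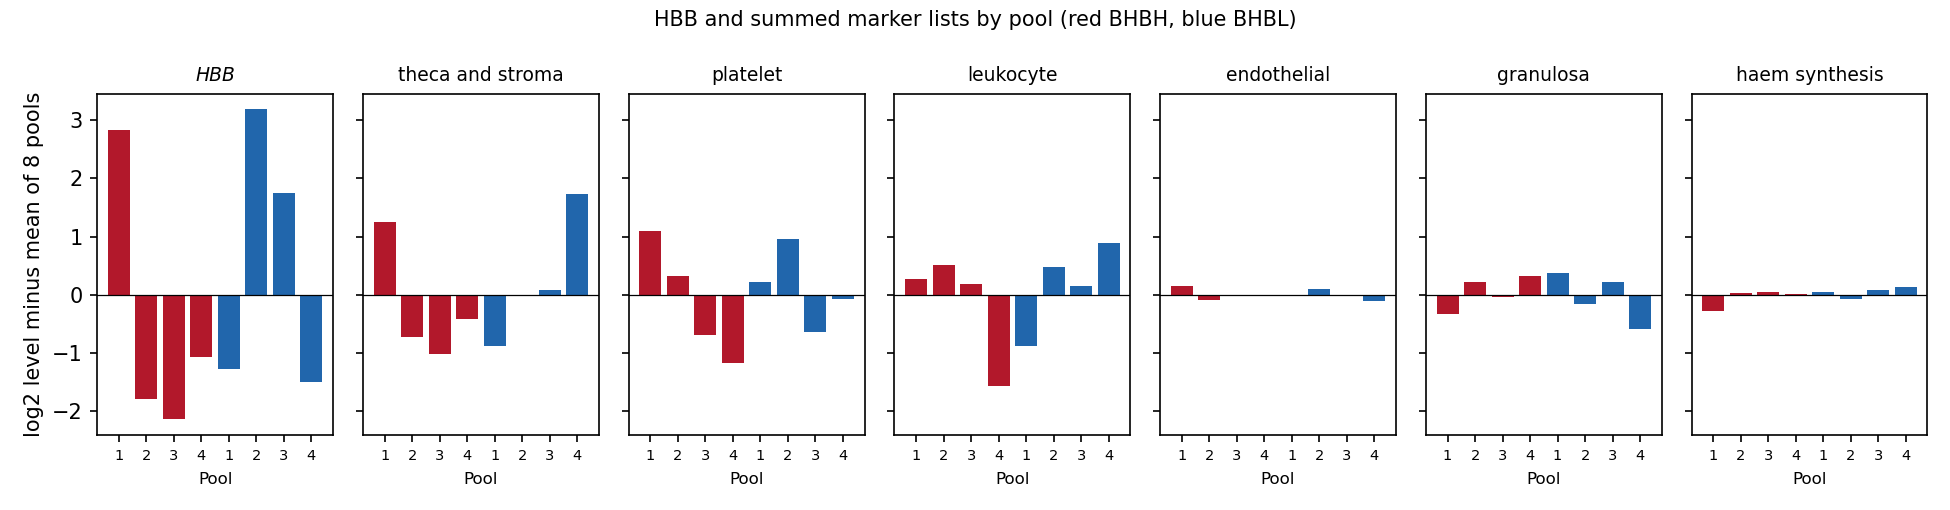
Log2 level of HBB, and log2 of the summed level of 6 gene lists, in each pool, minus the mean of the 8 pools (red BHBH, blue BHBL). HBB is high in BHBH pool 1 and BHBL pools 2 and 3. Theca and stroma genes are highest in BHBH pool 1 and BHBL pool 4, and the endothelial and haem synthesis lists are nearly level.

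Among 5095 named genes that spanned at least 1 log2 unit over the pools and were above background in at least 1 pool, the levels most like HBB over the 8 pools were sought. HBG had Pearson r = 0.9975 (Spearman rho 1), followed by SLIT3, a guidance ligand, at r = 0.979 and by HBA at 0.977. NRIP3 (0.969), the muscle filament protein gene PDLIM3 (0.961), RNF149 (0.960), the transcription factor gene NFIB (0.960), NFE2 (0.951), CEACAM19 (0.944) and MAP1LC3C (0.942) completed the 10. SLIT3 was above background in 6 of 16 channels. The pools fall into separate sets of 3 and 5, so these r values mostly reflect that split, and both pools of an array share its normalisation. HBG spanned 14.8-fold, while RNF149 and NFE2 spanned 1.08 and 1.16 log2 units.

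The genes most like HBA were HBG (r = 0.983), SLIT3 (0.978), PDLIM3 (0.978), HBB (0.977), the purine receptor gene P2RY13 (0.967), NFIB (0.966), NFE2 (0.966), C1R, a protease of the complement cascade (0.960), NRIP3 (0.954) and C1orf110 (0.952). HBB and HBA thus had 6 genes in common besides each other, namely HBG, SLIT3, PDLIM3, NFIB, NFE2 and NRIP3. None of them was in the list for ALAS2.

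ALAS2 was less like the globins than like its 10 nearest genes. Its r was 0.754 with HBB (rho 0.762) and 0.659 with HBA (rho 0.548). The 10 nearest genes were APCDD1, an inhibitor of Wnt signalling (0.986), PPP1R13L, an inhibitor of p53 (0.948), MCC (0.932), EPB41L5 (0.923), HES2 (0.921), the junction gene PKP4 (0.912), KHDRBS3 (0.912), the anion channel subunit gene LRRC8E (0.907), DSP, desmoplakin of cell junctions (0.903), and LTA4H, an enzyme of leukotriene synthesis (0.890). APCDD1 was at 0.77, -2.38, -1.47 and 0.57 in pairs 1 to 4, the signs of ALAS2, and DSP at 1.48, -3.19, -3.38 and -0.80. With a span of 1.24 log2 units over the pools and dim signal, the ALAS2 profile is a weak basis for likeness.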

How the data were processed

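The deposited scanner files give, per the file headers, intensity per spot as median foreground and local background in Cy3 and Cy5, without correction. A deposited table of the whole series holds log2 ratios. Limma is named in the submitters' processing notes, while scanner settings, background correction and normalisation are not given there. The direction of these ratios was BHBH over BHBL for either slide (r of 0.941 to 0.960 with the ratios computed here, medians of -0.0142 to 0.0396), and served as an alternative.

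Intensities were corrected with normexp (offset 50) and normalised by loess in limma 3.58.1 (R 4.3.3), with 1418 control spots at weight 0. The ratios of each pair's arrays were then averaged. Of 43794 probes 37687 had a background-subtracted signal over the mean plus 2 SD of 153 negative controls, in Cy3 or Cy5, for no fewer than 4 of the 8 arrays. Of all probes 21790 had 1 symbol and 22004 none. The 32285 features were 14035 named genes (brightest kept probe) and 18250 unnamed probes. They were tested against 0 with limma and Benjamini-Hochberg adjustment. Pool levels are channel values after a further Aquantile step. The number of arrays limits the precision.

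Ratios of arrays with the same area number correlated across features at 0.844 to 0.893 after the slide means were removed, against -0.521 to -0.03 for different areas, and 8 of 8 arrays matched best with their own area, so the area numbers were taken to pair the arrays. The named genes are the 3 members, the measured globins and haem synthesis genes, 4 genes of every other list by widest range between pairs, 10 genes nearest each member, and 5 check genes; defining markers of each cell type are named beside them. Members and lists were chosen with earlier results of these data known. The procedure was tested on simulated data. The probe sequences were not used here.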

Additional observations from a re-analysis of the deposited data

Results flagged for a closer look

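Of 93 groups of 4 values (ratios of 76 named genes and 11 list medians over pool pairs, and levels of the 3 members over the pools of each group), 2 had 1 value far from the other 3, where chance gives about 1 in 20. HBA had a log2 level of 10.03 in BHBH pool 1, against 7.66 to 7.98 in the other 3 BHBH pools. VWF, the endothelial von Willebrand factor gene, had a ratio of -0.47 in pair 2, against 0.04 to 0.14 in the other 3 pairs.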

How the results depend on the processing

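Processing alternatives were background correction, centring, the deposited ratios, no probe filter, averaging a gene's probes, each slide alone, and fits of the 8 arrays. With each pool pair left out as well, 15 settings were run for the mean ratios of HBB, HBA and ALAS2. All means stayed within 1 SD between pool pairs (4.17, 1.83 and 0.82) of the values above, a wide limit that many settings could not exceed. Leaving out 1 of 4 pairs cannot move a mean that far. The fits of the 8 arrays, the Aquantile step, the probe filter and probe averaging gave the same means by construction. This limit therefore says little on how firm the means are. The means ran from -2.81 to 0.21 for HBB, -1.16 to 0.29 for HBA and -0.65 to 0.04 for ALAS2. The range of HBB between pairs ran from 5.41 (without pair 1) to 9.23. That of HBA was 2.31 to 4.34 with 1 pool pair left out, lowest without pair 1. The median of the red cell lists was -0.0272 with the deposited ratios and -0.0847 to -0.0302 with 1 pair left out, nearest 0 without pair 2. The haem synthesis median ran from -0.14 to -0.02. The count of called features was 0 except with the area number as replicate block (120) and for 8 arrays without the block (215). The latter counts dye swaps of the same 4 pool pairs as 8 replicates, and the former applies 1 correlation of paired arrays to all features. The cause of the other changes was not tested. Of 80 genes of the globin, haem, iron and red cell lists, the 1 called by either of these fits was LMO2. The ALAS2 probe lies near the negative controls, which limits its ratios.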

Other observations

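The pattern of HBB, at least 2-fold higher in BHBH in pair 1 and at least 2-fold lower in pairs 2 and 3, was shared by 93 of 32285 features, 68 of them named genes. The pattern was chosen after the values of HBB were seen, and no test was made of it. In pair 4, 44 of the 68 were at least 2-fold lower in BHBH, 2 were at least 2-fold higher and 22, HBB (0.43), HBA (-0.05) and HBG (0.11) among them, lay between. A decrease of that size in pair 4 was seen for 5.1% of features. The genes named next were picked by hand as examples and stand for no gene group. Lower in pair 4 were C3 (3.39, -3.77, -2.87 and -1.83 in pairs 1 to 4) and CFB (3.77, -4.54, -4.26 and -3.04), both of the complement system, LYZ, lysozyme (2.82, -2.83, -2.23 and -1.12), and the keratin gene KRT8 (3.98, -3.41, -4.22 and -2.31). Near the globins in pair 4 were NRIP3 (0.21), MAP1LC3C (-0.11), SLIT3 (-0.11) and NFIB (-0.31), and ALOX15, a lipoxygenase gene, was higher at 2.63.

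HMOX2, the constitutive enzyme of haem breakdown (named after its values were seen), was lower in 4 of 4 pairs, at -0.24, -1.71, -1.32 and -0.75, but did not pass with limma (adjusted p = 0.918).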
